A study of Mus musculus with 15 samples.

Results

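The genes described here build the contacts between epithelial cells: claudins, occludin and the zonula occludens proteins of tight junctions, the classical and related cadherins with their catenins, the cadherins and plaque proteins of desmosomes, and the connexins of gap junctions. They were chosen by name alone, as every gene symbol on the array of the form Cldn, Cdh, Dsc, Dsg, Pkp, Gja, Gjb, Gjc or Tjp with a number, plus Ocln, Dsp, Jup, Ctnna1, Ctnnb1 and Ctnnd1. The rule found 144 probes of 81 genes among 45281 probes of 28902 gene names. Each gene was represented by its brightest probe.

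Tight junctions seal the space between neighbouring cells near the apical surface. Claudins set which ions pass, occludin is a further membrane protein, and the zonula occludens proteins, among them Tjp1 and Tjp3, tie both to actin. Adherens junctions join cells through cadherins, whose tails bind beta-catenin and p120-catenin and, through alpha-catenin, the actin cytoskeleton. Desmosomes anchor keratin filaments through desmogleins, desmocollins, plakoglobin, plakophilins and desmoplakin, and connexins form channels that pass small molecules from cell to cell. In the prostate, E-cadherin is carried by luminal and basal epithelial cells and P-cadherin mainly by basal cells.

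Anterior prostate RNA was measured on 1 Illumina array per mouse, in 3 groups. The mutant castrated group had 6 mice that carried an inducible Cre allele in single copy together with floxed copies (f/f) of a tumour suppressor gene, and were castrated. The mutant intact group had 6 mice of the same genotype that were not castrated. The control group had 3 intact mice with the Cre allele alone, so every group carried that allele, and the controls are described by the submitters as wild type in phenotype. Recombination through this allele depends on an inducer and on the prostate epithelial gene that drives Cre, so cells of other kinds in the tissue are not its intended target. Strain, age and the time from induction or castration to collection were not stated in the labels, and there was no group of castrated controls. Arrays are numbered within each group in the order of deposit.

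Values are log2 of the authors' processed intensity, where 1 unit is a 2-fold difference. The array background was taken in each array as the 95th percentile of 1466 probes for olfactory and vomeronasal receptors, between 7.27 and 7.39 on the log2 scale. Array medians lay between 151.4 and 152.5 in intensity, and precision is limited by how many arrays each group has. The tissue label was checked against luminal markers: keratin 8 (Krt8) averaged 14.7 in mutant castrated, 14.6 in mutant intact and 13.4 in control prostates. The androgen-dependent secretory gene probasin (Pbsn) averaged 7.0, at background, in both mutant groups and 11.8 in control. Seminal vesicle transcripts stood apart in 4 of the 9 intact arrays, with the summed markers at 16.58 and 17.18 in mutant intact 2 and 3 and at 17.08 and 16.75 in control 2 and 3, against 11.53 to 13.69 in mutant intact 1, 4, 5 and 6 and 12.40 in control 1, all as log2 of the summed intensity. The 6 mutant castrated arrays lay between 10.57 and 14.45. Results that rest on those arrays are given below with and without them.

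Of the 81 junction genes, 51 were above background on at least 3 arrays and were tested, with limma across all 16684 genes that passed the same filter and Benjamini-Hochberg adjustment. A gene was called at an adjusted p under 0.05. The tested genes were 14 of 21 claudins, all 4 of the occludin and zonula occludens group, 9 of 23 cadherins, 2 of 3 catenins, 4 of 9 desmosomal cadherins, all 6 desmosomal plaque genes and 12 of 15 connexins. The 30 others gave no usable level: the claudins Cldn6, Cldn14, Cldn16, Cldn17, Cldn18, Cldn19 and Cldn22, 14 cadherins, Ctnnd1, the desmosomal genes Dsc1, Dsc2, Dsg1a, Dsg1b and Dsg3, and 3 connexins, among them Gja3 and Gjb5. Their averages in mutant intact prostates lay between 6.92 and 7.23 on the log2 scale.

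The first comparison asked how these genes differed between mutant intact and control prostates. The cadherins of the epithelium and their catenins rose together, Tjp3 and Cldn10 rose most, and a smaller group that held occludin, Tjp1 and Pkp2 fell. In all, 15 junction genes were higher and 5 lower in mutant intact prostates, and 31 were not called. That is 39.2% of the genes tested, against 43.6% of all genes, of which 18.2% were called higher and 25.4% lower. The junction genes were thus called no more often than genes at large, with 29.4% higher and 9.80% lower. The median log2 fold change was 0.11 over the 51 junction genes and -0.04 over all genes. The groups did not overlap for 18 junction genes that were higher and 5 that were lower, against 17.9% and 23.6% of all genes. Of the called junction genes 8 changed at least 2-fold, a count for which no share of all genes is given.

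Markers of immune cells and of dividing cells rose in the same mutant intact arrays. Of 10 macrophage markers 9 rose and none fell, with summed intensities of 18855 to 140920 in mutant intact and 4473 to 5773 in control prostates. Of 7 tested T and natural killer cell markers 5 rose, with sums of 2594 to 5696 in mutant intact and 1593 to 1708 in control, while Cd4, Cd8a and Gzmb were not above background. Of 8 tested neutrophil markers 4 rose, with sums of 3573 to 18536 in mutant intact and 1224 to 1521 in control. Of 9 tested proliferation markers 7 rose, with sums of 3078 to 7899 in mutant intact and 1803 to 2349 in control. In these 3 lists no marker fell, and the part of such cells in the junction results was not tested. Each sum here and below is that of its list and includes background. The background limit was 155.4 to 167.3 in intensity per probe on the intact arrays.

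**Figure D1:**
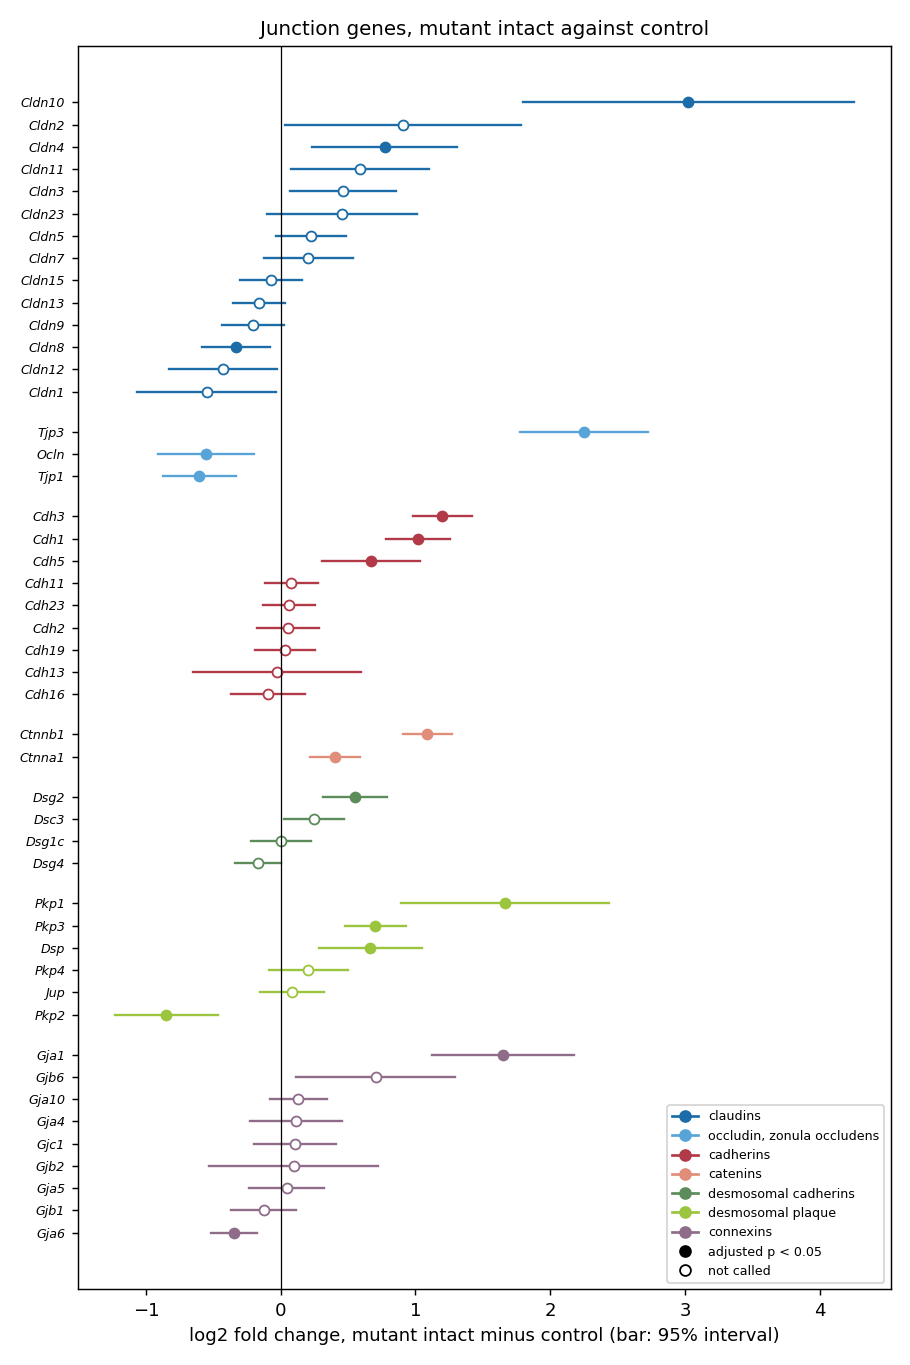
Log2 fold change of 47 of the 51 tested junction genes, mutant intact minus control, with bars for the 95% interval and filled points for an adjusted p under 0.05. Cldn10, Tjp3, Pkp1, Gja1, Cdh3, Ctnnb1 and Cdh1 lie above 1 with filled points, and Pkp2, Tjp1, Ocln, Gja6 and Cldn8 are filled below 0.

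E-cadherin (Cdh1), the cadherin of epithelial adherens junctions, lay between 12.17 and 12.56 in mutant intact prostates, with a median of 12.47, and at 11.38, 11.48 and 11.34 in the 3 controls. Every mutant array was above every control. The log2 fold change was 1.02 (SE 0.11, limma adjusted p = 3.41e-06), a 2.03-fold difference. P-cadherin (Cdh3) lay between 8.73 and 9.17 in mutant intact prostates (median 8.99) and at 7.75, 7.90 and 7.69 in control. It was 2.29-fold higher (log2 1.20, SE 0.10, limma adjusted p = 2.72e-07), again with no overlap. Its dimmer probes gave smaller log2 fold changes of 0.48 and 0.46, both called, and -0.10, not called. Of 10 basal cell markers, 10 rose in the same arrays. Their summed intensity was 43923 to 67877 in mutant intact and 6863 to 10242 in control prostates, and the part of basal cells in the Cdh3 result was not tested. Of 10 luminal cell markers 2 rose and 2 fell. Their summed intensity was 39834 to 79620 in mutant intact and 76647 to 88693 in control prostates. The part of luminal cells in the Cdh1 result was not tested. In bulk tissue, fewer cells of a kind and less RNA per cell cannot be told apart.

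Beta-catenin (Ctnnb1) binds the cadherin tail and is also the effector of Wnt signalling. It lay between 13.58 and 14.03 in mutant intact prostates (median 13.78) and at 12.69, 12.67 and 12.72 in control. The smallest gap between the groups was several times the spread of the controls, and the gene was 2.13-fold higher (log2 1.09, SE 0.08, limma adjusted p = 1.04e-07). Alpha-catenin (Ctnna1), the link to actin, rose by less, to 13.96 ± 0.13 in mutant intact (SD, n = 6) against 13.55 ± 0.03 in control prostates (SD, n = 3), 1.32-fold with an adjusted p from limma of 0.00154. The chosen Ctnnd1 probe was below background on every array. A further probe that the array lists under the older name CATNS, a synonym of Ctnnd1, was outside the naming rule and averaged 11.03 in mutant intact and 10.54 in control prostates, with a log2 fold change of 0.49 (limma adjusted p = 0.0046 over all probes tested).

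Of the other cadherins tested under the naming rule, Cdh5 alone was called. N-cadherin (Cdh2), whose gain at the expense of E-cadherin marks epithelial-mesenchymal transition in many carcinomas, stayed near background, between 7.17 and 7.56 in mutant intact prostates and at 7.53, 7.11 and 7.37 in control (log2 0.05, SE 0.11, limma adjusted p = 0.737). Cdh11, Cdh13, Cdh16, Cdh19 and Cdh23 had log2 fold changes between -0.10 and 0.08, none of them called. The Cdh4 probe inside the rule was not above background on any array. Another probe, listed under AW120700, an older name of Cdh4, was outside the rule. It averaged 7.08, within background, in mutant intact and 7.97 in control prostates. Its log2 fold change was -0.89 (limma adjusted p = 1.17e-06 over all probes tested). VE-cadherin (Cdh5), the endothelial cadherin, lay between 8.09 and 8.85 in mutant intact prostates (median 8.48) and at 7.76, 7.98 and 7.62 in control, 1.59-fold higher (limma adjusted p = 0.00484). Its dimmer probe gave a log2 fold change of 0.33, not called. The endothelial claudin Cldn5 had a median of 7.84 and a highest value of 8.24 in mutant intact prostates and lay at 7.69, 7.60 and 7.59 in control, with overlapping groups (log2 0.23, SE 0.12, limma adjusted p = 0.146). Of 11 other endothelial markers 2 rose and 1 fell, and their summed intensity was 4098 to 6879 in mutant intact and 5920 to 7498 in control prostates. Pecam1, a defining marker, had a log2 fold change of 0.31 that was not called (limma adjusted p = 0.164).

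**Figure D2:**
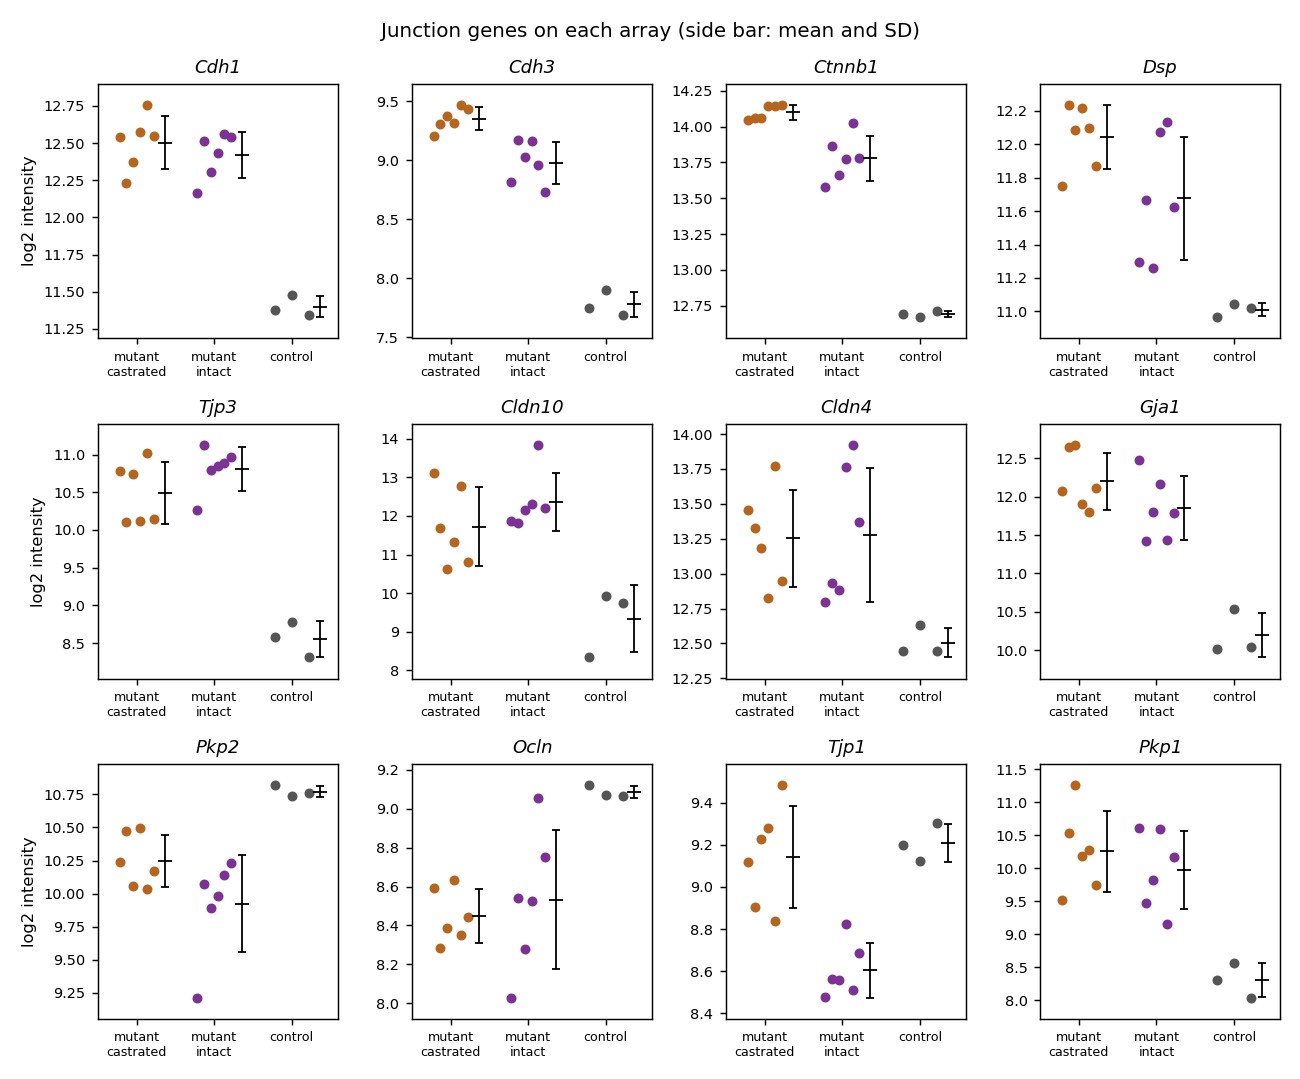
Log2 intensity of 12 junction genes on each array, with a side bar for the mean and SD of the group (6 mutant castrated, 6 mutant intact and 3 control arrays). Cdh1, Cdh3, Ctnnb1, Tjp3, Cldn10, Gja1 and Pkp1 show both mutant groups wholly above the controls, and Pkp2 shows them wholly below.

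Claudin 10 (Cldn10), which forms ion channels between cells of secretory epithelia and kidney tubules, rose more than any other junction gene. It lay between 11.81 and 13.84 in mutant intact prostates (median 12.17) and at 8.34, 9.93 and 9.74 in control. The groups did not overlap, though control 1 lay more than 1 unit below controls 2 and 3, which were high in seminal vesicle transcripts. The gene was 8.14-fold higher (log2 3.02, SE 0.57, limma adjusted p = 0.000559), and its other 2 tested probes gave log2 fold changes of 3.03 and 2.71. Without the 4 intact arrays high in those transcripts, which leaves control 1 alone, the log2 fold change of Cldn10 was 4.22. Zonula occludens 3 (Tjp3), the scaffold found in epithelial cells, lay between 10.26 and 11.13 in mutant intact prostates (median 10.87) and at 8.58, 8.78 and 8.31 in control. It was 4.77-fold higher (log2 2.25, SE 0.22, limma adjusted p = 1.18e-06), and its other probe gave 2.32.

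Claudin 4 (Cldn4), a sealing claudin of simple epithelia, was 1.71-fold higher, at 13.28 ± 0.48 in mutant intact (SD, n = 6) and 12.51 ± 0.11 in control prostates (SD, n = 3). Its call rested on all 3 controls: the adjusted p from limma was 0.0218 with them, 0.0707 without control 1 and 0.069 without control 3, within a range of 0.00804 to 0.104 over 28 alternatives. Cldn3, its relative, and Cldn2, a pore-forming claudin, had log2 fold changes of 0.46 and 0.91 that were not called (limma adjusted p = 0.0565 and 0.0862). Cldn11 and Cldn23 had all 6 mutant intact arrays above the controls but were not called either (limma adjusted p = 0.059 and 0.177). Cldn5, Cldn7, Cldn9, Cldn13 and Cldn15 had log2 fold changes between -0.20 and 0.23, none of them called.

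Occludin (Ocln) and Tjp1 moved opposite to Tjp3. Occludin lay between 8.03 and 9.06 in mutant intact prostates (median 8.53) and at 9.12, 9.07 and 9.07 in control, with no overlap but almost no gap. It fell by 0.56 on the log2 scale (SE 0.17, limma adjusted p = 0.0134). Tjp1, the zonula occludens protein of both tight and early adherens junctions, lay between 8.48 and 8.82 in mutant intact prostates (median 8.56) and at 9.20, 9.12 and 9.30 in control. It fell by 0.60 on the log2 scale (SE 0.13, limma adjusted p = 0.00118) with no overlap. Of 11 smooth muscle markers 11 fell in the same arrays, with summed intensities of 6590 to 35685 in mutant intact and 82421 to 93470 in control prostates, and their part in the lower levels of Ocln and Tjp1 was not tested.

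Among the claudins, Cldn8 was the lowest call. It lay between 6.99 and 7.55 in mutant intact prostates, where 1 of 6 arrays was above background, and at 7.69, 7.32 and 7.44 in control, with overlapping groups. The measured values differed by -0.33 on the log2 scale (limma adjusted p = 0.0323), a size that is not well measured because 5 of the 6 mutant intact arrays were not above background. The call was lost when control 1 (adjusted p = 0.187) or control 3 (0.0623) was left out, and also without mutant intact 1 (0.0563), 2 (0.0509), 3 (0.0558) or 4 (0.0596). Over 27 alternatives its adjusted p ranged from 0.00241 to 0.187. Cldn1 and Cldn12 had log2 fold changes of -0.55 and -0.43, not called at limma adjusted p = 0.0801 and 0.0805.

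The promoter sequences of 26 tested junction genes were at hand in RefSeq (GRCm38.p6), as 37 windows of 250 bases before a gene's start. Several called genes had no window, among them Cdh1, Cdh3, Dsg2, Pkp1, Pkp2 and Pkp3, so the motif was not looked for there. They are shown for Cldn10, which rose most, and for the called tight junction genes whose windows hold the E-box. The E-box, CACCTG or on the other strand CAGGTG, to which the Snail and Zeb repressors of epithelial genes bind, is a well-studied motif of such promoters. The letters occurred in 17.2% of all 32851 windows of that length. Counted by window in the same way, they occurred in 8 of the 37 windows of junction genes. Counted by gene, where any window of a gene suffices, they occurred in 2 of 6 genes called higher in mutant intact prostates (Cldn4 and Tjp3), in 1 of 3 called lower (Ocln), and in 4 of 17 not called. The counts by gene are not comparable with the 17.2%. The windows are chr5:134946935-134947184 on the minus strand for Cldn4, chr10:81291582-81291831 and chr10:81291268-81291517 on the minus strand for 2 starts of Tjp3, chr13:100552499-100552748 on the minus strand for Ocln, and chr14:118787621-118787870 and chr14:118854700-118854949 on the plus strand for the 2 alternative starts of Cldn10. Capitals mark the E-box:
Cldn4: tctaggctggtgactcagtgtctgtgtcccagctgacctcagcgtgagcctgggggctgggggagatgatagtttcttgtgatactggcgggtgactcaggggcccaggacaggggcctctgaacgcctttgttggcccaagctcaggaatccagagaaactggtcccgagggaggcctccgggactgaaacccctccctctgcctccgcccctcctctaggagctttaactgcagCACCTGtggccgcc
Tjp3 upstream start: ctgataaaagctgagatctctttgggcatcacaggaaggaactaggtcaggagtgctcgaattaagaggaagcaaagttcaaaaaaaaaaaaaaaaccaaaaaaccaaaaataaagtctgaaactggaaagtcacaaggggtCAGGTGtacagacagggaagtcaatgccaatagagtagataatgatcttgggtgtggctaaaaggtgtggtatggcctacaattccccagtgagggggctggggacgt
Tjp3 downstream start: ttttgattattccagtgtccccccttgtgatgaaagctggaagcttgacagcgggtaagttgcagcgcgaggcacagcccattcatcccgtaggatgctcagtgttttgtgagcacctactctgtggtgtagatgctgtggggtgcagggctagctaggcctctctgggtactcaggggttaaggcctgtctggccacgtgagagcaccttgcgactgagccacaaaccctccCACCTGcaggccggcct
Ocln: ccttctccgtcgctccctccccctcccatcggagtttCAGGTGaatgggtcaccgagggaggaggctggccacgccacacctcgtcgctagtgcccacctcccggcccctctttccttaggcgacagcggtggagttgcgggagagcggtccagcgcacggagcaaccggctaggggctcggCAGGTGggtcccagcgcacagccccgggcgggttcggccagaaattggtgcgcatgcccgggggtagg
Cldn10 upstream start: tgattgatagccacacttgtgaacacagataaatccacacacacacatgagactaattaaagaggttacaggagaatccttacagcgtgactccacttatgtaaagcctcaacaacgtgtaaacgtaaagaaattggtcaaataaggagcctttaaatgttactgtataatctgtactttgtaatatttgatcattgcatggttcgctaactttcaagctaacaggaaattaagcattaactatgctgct
Cldn10 downstream start: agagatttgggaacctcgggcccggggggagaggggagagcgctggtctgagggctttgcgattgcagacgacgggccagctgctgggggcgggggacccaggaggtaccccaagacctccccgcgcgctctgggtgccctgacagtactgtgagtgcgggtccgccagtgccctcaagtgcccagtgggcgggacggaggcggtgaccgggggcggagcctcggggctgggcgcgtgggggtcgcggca
Tjp3 has 1 E-box in each window, Cldn4 has 1, the Ocln window shown has 2, and neither Cldn10 window has any. The other Ocln window and the Tjp1 window, not shown, have none either. Among the called genes with a window, the motif was thus present in some that rose and in 1 that fell, and absent in others of both kinds.

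Among the regulators known to bind such promoters, Zeb1 fell by 0.93 on the log2 scale in mutant intact prostates (limma adjusted p = 0.0207). The 11 tested smooth muscle markers all fell in the same arrays, and the part of such cells in the lower Zeb1 level was not tested. Snai1, Snai2 and Zeb2 had log2 fold changes of 0.31, 0.41 and 0.21, not called. In the whole list of 18 epithelial junction regulators 4 rose and 3 fell, beside a background of 18.2% and 25.4%. The epithelial factors Klf5 and Elf3 rose most, 20.8-fold and 13.1-fold, and Grhl3, a factor of epithelial barriers, rose 1.71-fold. Its relative Grhl1, which acts on a desmoglein gene in skin, fell by 0.68 on the log2 scale, and the epithelial factor Ovol2 by 0.39.

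In desmosomes, 4 of 6 plaque genes and 1 of 4 tested cadherins were called, beside 43.6% of all genes. Plakophilin 1 (Pkp1), the plakophilin of stratified epithelia, lay between 9.16 and 10.61 in mutant intact prostates and at 8.31, 8.56 and 8.04 in control. All mutant arrays were above the controls and the gene was 3.17-fold higher (log2 1.67, SE 0.36, limma adjusted p = 0.00162). Pkp3, the plakophilin of most epithelia, was 1.63-fold higher (limma adjusted p = 7.23e-05). Desmoplakin (Dsp), which holds the keratin filaments, lay between 11.26 and 12.13 in mutant intact prostates (median 11.65) and at 10.97, 11.04 and 11.02 in control, 1.59-fold higher (limma adjusted p = 0.00728). Its dimmer probes, near background, gave log2 fold changes of 0.31, called, and 0.08, not called. The spread of Dsp among mutant intact arrays was wide, and the lowest lay just above the highest control.

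Plakophilin 2 (Pkp2), the plakophilin of simple epithelia and heart, ran the other way. It lay between 9.21 and 10.23 in mutant intact prostates (median 10.03) and at 10.82, 10.74 and 10.76 in control. It fell by 0.85 on the log2 scale (SE 0.18, limma adjusted p = 0.00134), the largest fall among the junction genes, and both other Pkp2 probes also fell, by 0.68 and 0.63. Pkp1 and Pkp3 thus rose while Pkp2 fell in the same arrays. Pkp4, which also binds classical cadherins, was not called by its brightest probe (log2 0.21, limma adjusted p = 0.247). Plakoglobin (Jup) lay between 7.29 and 7.58 in mutant intact prostates and at 7.40, 7.21 and 7.38 in control, close to background throughout (log2 0.08, limma adjusted p = 0.58).

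Of the desmosomal cadherins, desmoglein 2 (Dsg2), the desmoglein of simple epithelia, was 1.47-fold higher at 11.70 ± 0.16 in mutant intact (SD, n = 6) and 11.15 ± 0.16 in control prostates (SD, n = 3; limma adjusted p = 0.00101). Its dimmer probes gave smaller log2 fold changes of 0.32, called, and of 0.26 and -0.08, not called. Dsc3, a desmocollin of basal layers, was above background on 1 of 6 mutant intact arrays and on no control and was not called (limma adjusted p = 0.0661), nor were Dsg1c and Dsg4. The proteins that join desmosomes to keratin changed alongside. Of 5 tested desmosome and cornified envelope partners 4 rose and 1 fell: the plakins envoplakin (Evpl) and periplakin (Ppl) 4.42-fold and 3.68-fold, and the basal keratins Krt14 and Krt5 6.65-fold and 3.80-fold. Dystonin (Dst), a plakin of hemidesmosomes, fell by 0.87 on the log2 scale. Squamous markers rose in 4 of 8 tested cases and fell in none, with summed intensities of 5908 to 15667 in mutant intact and 2271 to 2386 in control prostates. The part of basal or squamous cells in the Pkp1 result was not tested.

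Gja1, the most widely expressed connexin, lay between 11.42 and 12.48 in mutant intact prostates (median 11.80) and at 10.02, 10.53 and 10.04 in control. It was 3.14-fold higher with no overlap (log2 1.65, SE 0.25, limma adjusted p = 6.97e-05). Gjb2, a connexin of many glands, and Gjb1, the connexin described in luminal prostate cells, had log2 fold changes of 0.09 and -0.13, not called (limma adjusted p = 0.822 and 0.394).

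The other connexins described here lay close to background. Gjb6, a skin connexin, was above background on all 6 mutant intact arrays and on no control, at least 1.23-fold higher, and missed the threshold (limma adjusted p = 0.0504). Gja6, an X-linked connexin known from testis, fell by 0.35 on the log2 scale, between 7.28 and 7.46 in mutant intact prostates (median 7.43) and at 7.72, 7.73 and 7.82 in control (limma adjusted p = 0.00258) and close to background in every group. Gja4, Gja5, Gja10 and Gjc1 were not called. Among 3 tested relatives, pannexin 1 (Panx1), which forms channels to the outside of the cell, rose 2.46-fold.

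Lists of partners of these proteins held calls in both directions, as did all genes, of which 18.2% were called higher and 25.4% lower. Of 25 tested tight junction partners 9 rose and 3 fell. The adhesion receptor Cxadr rose 3.70-fold, paracingulin (Cgnl1) 3.1-fold, the tricellular protein Lsr 2.48-fold, and angiomotin-like 1 (Amotl1) fell by 1.93 on the log2 scale. Of 20 tested adherens junction partners 9 rose and 3 fell, with the actin cross-linker Actn4 1.92-fold, the phosphatase Ptprf 1.84-fold and nectin 2 (Nectin2) 1.84-fold higher, and alpha-catulin (Ctnnal1) lower by 1.96 on the log2 scale. Of 11 genes of hemidesmosomes and basal adhesion 5 rose and 2 fell, among them integrin beta 4 (Itgb4) 5.03-fold, collagen XVII (Col17a1) 4.54-fold and the laminin beta chain Lamb3 2.62-fold higher, whereas the laminin alpha chain Lama3 fell by 1.05 on the log2 scale. Of 9 listed proteases and protease inhibitors 4 rose and none fell, with Hgfac 10.4-fold, Mmp14 6.77-fold, the inhibitor Spint1 2.10-fold and hepsin (Hpn) 1.49-fold higher.

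Leaving out the 4 intact arrays high in seminal vesicle transcripts left 1 control and 4 mutant intact arrays, so that control is assumed to vary like the other groups. Calls over all genes then numbered 3663, against 7282 with every array. The junction genes called in mutant intact prostates were then 8 higher and 0 lower, and all 8 were also called with every array, among them Cdh1, Cdh3, Cldn10, Ctnnb1, Gja1, Pkp3 and Tjp3. These 8 were called under each of the 28 alternatives run. The 12 that lost their call included Cdh5, Cldn4, Ctnna1, Dsg2, Dsp and Pkp1 and all 5 of the lower genes, Cldn8, Gja6, Ocln, Pkp2 and Tjp1. Their log2 fold changes kept their direction. Without the 4 arrays the log2 fold change was 1.82 for Pkp1, against 1.67 with every array, and 0.82 against 0.67 for Dsp. It was 0.45 against 0.40 for Ctnna1, 1.02 against 0.77 for Cldn4, 0.72 against 0.67 for Cdh5 and 0.43 against 0.55 for Dsg2. Among the lower genes it was -0.93 against -0.85 for Pkp2, -0.57 against -0.60 for Tjp1, -0.53 against -0.56 for Ocln, -0.33 against -0.35 for Gja6 and -0.51 against -0.33 for Cldn8.

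Where a gene had several probes above background, they mostly moved the same way. Of the 18 such genes, 9 were called in mutant intact against control prostates, and 14 of their 16 other probes had the same sign. Of those, 11 were called in the same direction and 0 in the opposite one. Among genes whose brightest probe was not called, Cldn2 and Gja5 had dimmer probes called higher, and Pkp4 had one called lower. The brightest Pkp4 probe averaged 13.53 in mutant castrated, 13.23 in mutant intact and 13.02 in control prostates. The dimmer one averaged 8.10 in mutant castrated, 8.14 in mutant intact and 8.79 in control, a fall of 0.65 on the log2 scale in mutant intact prostates (limma adjusted p = 0.000219 over all probes tested). Another averaged 9.69 in mutant castrated, 9.98 in mutant intact and 10.34 in control. What the probes of Pkp4 measure was not tested.

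**Figure D3:**
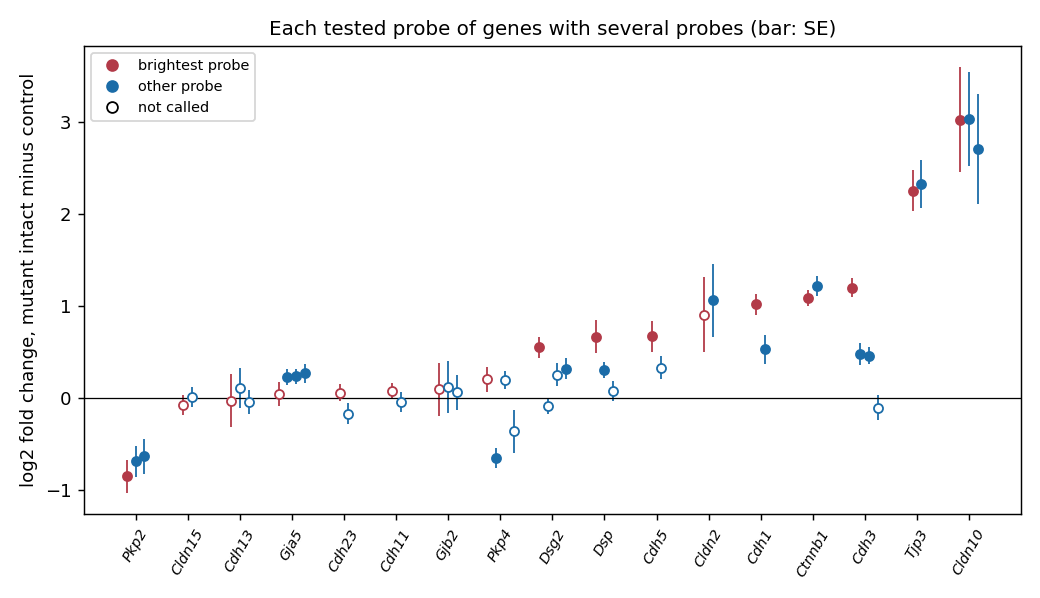
Log2 fold change, mutant intact minus control, of each tested probe of 17 of the 18 junction genes with several, with bars for the SE, the brightest probe in red, the others in blue and open points where the adjusted p was not under 0.05. The probes of Pkp2, Ctnnb1, Tjp3 and Cldn10 lie close together, and those of Pkp4 lie on both sides of 0.

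The second comparison asked what castration of mutant mice changed. No junction gene was called, and none of the 16684 genes tested was (limma, 0% called). At an unadjusted p under 0.05 there were 10 junction genes, 19.6% of those tested against 15.7% of all genes, and all 10 were higher in mutant castrated prostates (10.2% of all genes were higher at that limit and 5.48% lower). The median log2 difference over the junction genes was 0.07. The groups did not overlap for 4 junction genes, each higher in mutant castrated prostates, against 0.767% of all genes.

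Among these were scaffold and adherens junction genes. Tjp1 lay between 8.84 and 9.48 in mutant castrated prostates (median 9.17) and between 8.48 and 8.82 in mutant intact (median 8.56), a difference of 0.54 on the log2 scale (95% interval 0.32 to 0.76, limma adjusted p = 0.0607). The castrated levels were close to those of control prostates, at 9.12 to 9.30. Ctnnb1 lay between 14.04 and 14.15 in mutant castrated prostates (median 14.10) and between 13.58 and 14.03 in mutant intact (median 13.78), a difference of 0.32 (95% interval 0.17 to 0.47, limma adjusted p = 0.0822). Cdh3 lay between 9.21 and 9.47 in mutant castrated prostates (median 9.34) and between 8.73 and 9.17 in mutant intact (median 8.99), a difference of 0.37 (95% interval 0.20 to 0.55, limma adjusted p = 0.0825). For Ctnnb1 and Cdh3 the castrated values stood further from the controls than the intact ones, and for Tjp1 they stood nearer.

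Further genes at an unadjusted p under 0.05 were Cldn5, with a median of 8.13 in mutant castrated and 7.84 in mutant intact prostates, and Cldn1, at 8.41 to 9.52 in mutant castrated (median 9.21) and 8.18 to 8.90 in mutant intact prostates (median 8.41), with overlapping groups and limma adjusted p = 0.2 for each. Dsp, Pkp2, Pkp4 and Gjb6 also passed that limit, with differences of 0.37, 0.32, 0.30 and 0.50. The remaining core genes gave intervals around 0. The difference was 0.08 for Cdh1 (95% interval -0.11 to 0.28), -0.13 for Ctnna1 (-0.28 to 0.03), -0.08 for Ocln (-0.37 to 0.21), 0.15 for Jup (-0.05 to 0.34), 0.35 for Gja1 (-0.08 to 0.78) and 0.02 for Cdh5 (-0.28 to 0.31). For Cdh2 it was -0.18 (-0.36 to 0.01).

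**Figure D4:**
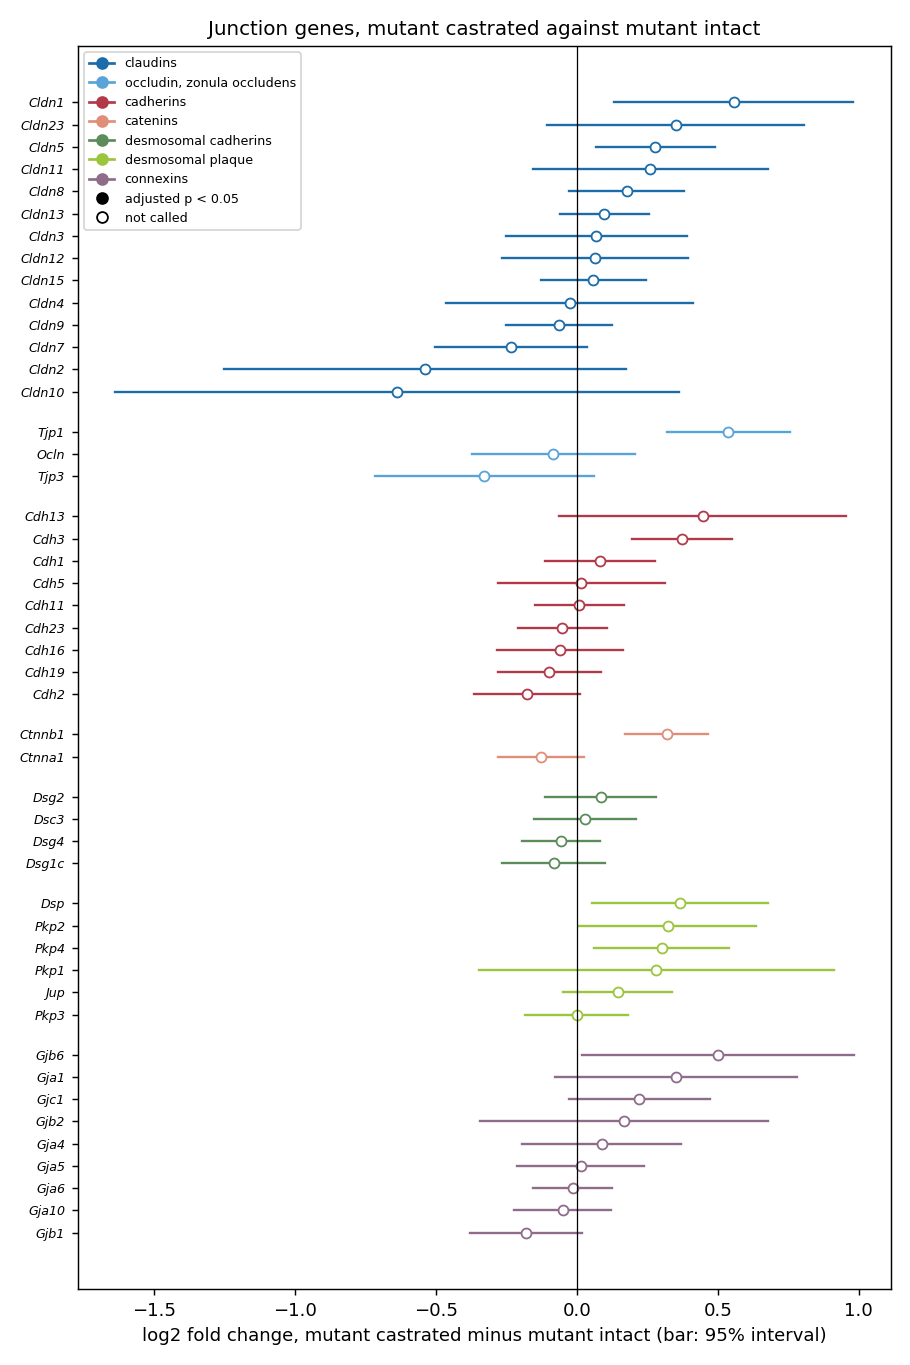
Log2 difference of 47 of the 51 tested junction genes, mutant castrated minus mutant intact, with bars for the 95% interval. All points are open because none had an adjusted p under 0.05, and the intervals of Tjp1, Cdh3, Ctnnb1 and 6 other genes lie wholly above 0.

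The 6 mutant castrated arrays did not form one group for some claudins. Castrated 1 and 5 had Cldn1 at 8.60 and 8.41, against 9.21 to 9.52 on the other four arrays. Cldn23 was at 10.56 and 10.57 there, against 11.07 to 11.71, and T-cadherin (Cdh13), a cadherin without a cytoplasmic tail, at 8.33 and 8.20, against 9.09 to 9.61. Cldn10 ran the other way, at 13.12 and 12.79 in castrated 1 and 5 and 10.62 to 11.69 on the others. The same 2 arrays had the prostate secretory gene Msmb at 11.41 and 12.85, against 7.11 to 7.39 in castrated 2, 3, 4 and 6, and the lowest summed fibroblast markers of the castrated arrays, at 13.45 and 13.83 against 15.26 to 15.68 (log2 of the summed intensity). What set these arrays apart was not tested.

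Calls between the mutant groups depended on those arrays. Without castrated 1, 3 junction genes were called higher: Cdh3 (limma adjusted p = 0.0417), Ctnnb1 (0.0458) and Tjp1 (0.0355). Without castrated 5, Tjp1 alone was called (0.0255). Weighting the arrays by their quality called the same 3 genes as without castrated 1, with limma adjusted p = 0.0441 for Cdh3, 0.0282 for Ctnnb1 and 0.0282 for Tjp1. Over the alternatives run, the adjusted p ranged from 0.00453 to 0.409 for Tjp1, from 0.0271 to 0.458 for Ctnnb1 and from 0.0244 to 0.459 for Cdh3. Without both castrated 1 and 5, a choice made after the values were seen, 8 junction genes were called higher (among them Cdh3, Cdh13, Cldn1, Cldn23, Ctnnb1 and Tjp1) and 1 lower (Cldn7). Calls also appeared among all 16684 genes tested. They numbered 268 without castrated 1, 234 without castrated 5, 618 with array weights and 1678 without both castrated 1 and 5.

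**Figure D5:**
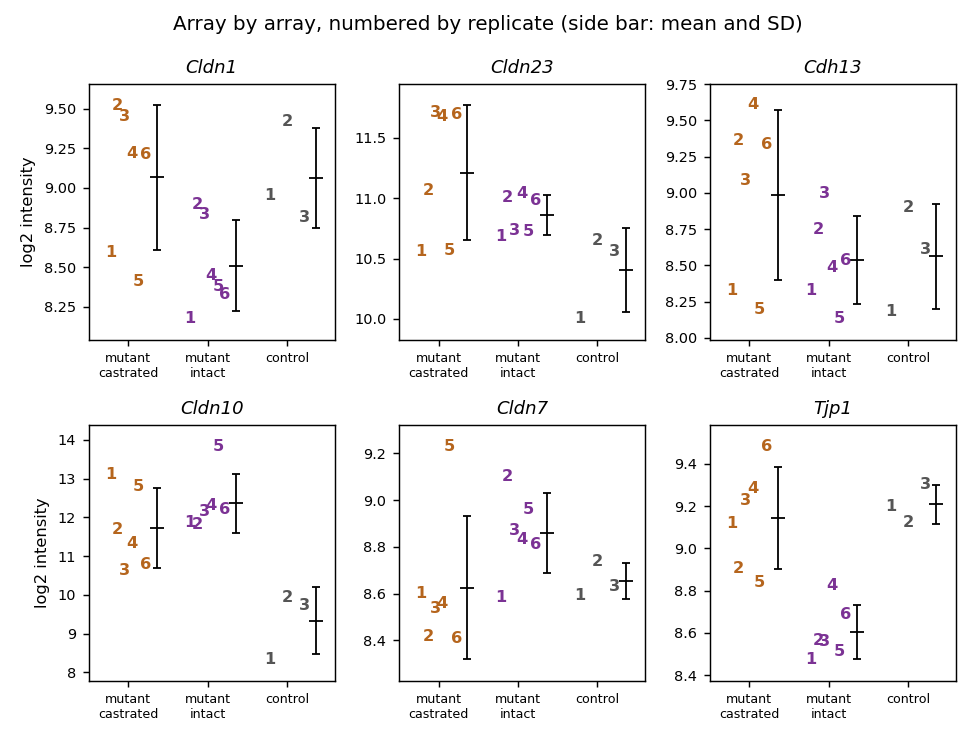
Log2 intensity of 6 junction genes on each array, each digit being the replicate number, with a side bar for the mean and SD of the group. Castrated 1 and 5 lie below the other castrated arrays for Cldn1, Cldn23 and Cdh13 and above them for Cldn10.

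Against control, mutant castrated prostates had 22 junction genes higher and 5 lower, 52.9% of those tested against 44.6% of all genes (20.0% higher and 24.6% lower). The groups did not overlap for 21 that were higher and 5 that were lower, against 20.2% and 22.7% of all genes. This comparison shares its arrays with the other two, so the values are set side by side and not counted again. Of the 51 genes, 14 were called higher and 3 lower (Gja6, Ocln and Pkp2) in both mutant groups. Both comparisons use the same controls, and no share of all genes called in both is given. These counts thus do not set the junction genes apart. Cdh3 and Ctnnb1 were 2.97-fold and 2.65-fold higher in mutant castrated prostates and Gja1 4.0-fold. Cldn10 was 5.23-fold and Tjp3 3.80-fold higher. Tjp1 was called lower in mutant intact but not in mutant castrated prostates, where its log2 fold change against control was -0.07 (limma adjusted p = 0.704), and the difference between the mutant groups missed the threshold, as given above.

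Called higher only in mutant castrated against control were 8 genes, among them Cldn3, Cldn5, Cldn11, Cldn23, Dsc3, Gjb6 and Pkp4. Dsc3 and Gjb6 passed the background filter through mutant arrays alone, so their place among the higher calls partly follows from the filter. The log2 fold changes of Cldn3, Cldn5, Cldn11 and Cldn23 were 0.51 to 0.85. Dsc3 was above background on 2 of 6 castrated arrays and on no control, so it has no informative bound on its fold. The call of Pkp4 rested on its brightest probe (log2 0.51), whereas 2 dimmer probes were called lower, at -0.69 and -0.65 (limma adjusted p = 0.000127 and 0.0335 over all probes tested), and the mean of its probes gave -0.18. Called lower only there were Dsg4 and Gjb1, by 0.23 and 0.31. Most of these were near the threshold, and none was called between the mutant groups. No share of all genes called only in mutant castrated against control prostates is given. Gjb6 was at least 1.74-fold higher, with all 6 castrated arrays above background and no control. Cldn3, Dsc3 and Pkp2 lost their call when any single control was left out, Cldn4 and Gjb1 without control 1 or 3, Dsg4 without control 2 or 3, and Cldn23 and Ctnna1 without control 1. Leaving out single castrated arrays ended the calls of Cldn3 (without castrated 1, 4 or 5), Dsc3 (2, 3, 5 or 6), Gjb1 (2, 3, 5 or 6), Dsg4 (3 or 4) and Pkp2 (3). The count was 16 higher and 3 lower without control 1, and 12 higher and 0 lower without the 4 intact arrays high in seminal vesicle transcripts, which leaves 1 control. Calls over all genes then numbered 3970, against 7449 with every array. Among the calls lost in that setting, the log2 fold change was 1.21 without the 4 arrays against 0.81 with every array for Cldn23, 1.25 against 1.21 for Gjb6, -0.57 against -0.53 for Pkp2 and -0.67 against -0.64 for Ocln. For Dsg4 it was nearer 0, at -0.11 against -0.23.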

How the data were processed

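Total RNA from anterior prostate was labelled and measured on 15 single-colour Illumina arrays. The intensity values are the authors' processed table, deposited on a linear scale; how they corrected background and normalized is not given in the sources used here. A second deposited table holds signals before normalization in 15 columns named by chip and position. These matched no animal's label and were left out, as was the chip as a batch, so the planned background correction and quantile normalization of raw signals were replaced by log2 of the processed values. Only its gene symbols were taken. Of the probes, 27760 carried a current symbol in the RefSeq table (GRCm38.p6), 7994 an older symbol of 1 gene, 187 an ambiguous and 9340 an unmatched one. The 10 probes that the array lists under an older name of a junction gene stayed outside the rule.

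A probe was tested if above the 95th percentile of 1466 olfactory and vomeronasal receptor probes on at least 3 arrays (24474 probes), and the brightest probe stood for a gene. Limma 3.58.1 (R 4.3.3) fitted 1 mean per group over all arrays, with moderated variances and Benjamini-Hochberg adjustment over 16684 genes, after a test on simulated data with known answers. An "at least" fold sets the brighter group's mean against the background limits of the dim group. Array numbers follow the order of deposit and pair no animals. Every junction gene could be named; values per array were given for up to 8 higher and 8 lower calls of the first comparison, a core set, and the 6 smallest p-values of the second, and partner genes were the up to 4 with the largest fold among the calls of a list. The Pkp4, castrated-array and regulator genes singled out beyond this were chosen after their values were seen. Members, lists and tests were chosen with earlier results of these data known. Alternatives were the filter, probe choice, normalization, array weights, variance model, arrays used and each array left out. The genes altered in the mutants and some junction and partner genes, which stay in the counts, are not reported here.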

Additional observations from a re-analysis of the deposited data

Results flagged for a closer look

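In 12 of the 102 sets of 6 arrays, 1 set for each tested junction gene in each mutant group, the highest or lowest array lay far from the other 5 by Dixon's test; chance gives about 1 in 20. Of these, 6 were in mutant castrated and 6 in mutant intact prostates. All values are log2 intensities. In mutant castrated prostates, array 1 was highest for Cldn11 at 8.93 (others 7.87 to 8.05), for Cdh2 at 7.38 (others 7.14 to 7.23) and for Ctnna1 at 14.04 (others 13.74 to 13.84). Array 5 was highest for Cldn7 at 9.23 (others 8.41 to 8.60) and for Pkp3 at 10.09 (others 9.61 to 9.78), and array 6 for Cdh16 at 7.38 (others 6.98 to 7.10). In mutant intact prostates, array 5 was highest for Cldn10 at 13.84 (others 11.81 to 12.32) and for Cldn8 at 7.55 (others 6.99 to 7.15), array 3 for Cdh16 at 7.64 (others 6.99 to 7.13) and array 4 for Pkp3 at 9.94 (others 9.66 to 9.76). Array 1 was lowest for Pkp2 at 9.21 (others 9.89 to 10.23), and array 4 was lowest for Cldn9 at 7.54 (others 7.68 to 7.73). The Cdh2, Cdh16, Cldn8 and Cldn9 values are close to background. The single high Cldn10 array did not decide that gene's call, which was made under each of the 28 alternatives run.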

How the results depend on the processing

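The number of junction genes called in mutant intact against control prostates stayed within 1.5 times the 20 reported, except without the 4 intact arrays high in seminal vesicle transcripts, where it was 8 (8 higher and 0 lower). Leaving out 1 array at a time gave 17 to 22 calls, 13 to 17 higher and 4 to 6 lower. Between the mutant groups the 0 calls became 3 with array weights (3 higher), 0 to 3 with 1 array left out (all higher, with 0 lower throughout) and 9 without castrated arrays 1 and 5 (8 higher and 1 lower). Over all 16684 genes the calls in these settings numbered 618, 0 to 268 and 1678. In mutant castrated against control prostates, 1 array left out gave 19 to 28 calls, 16 to 22 higher and 3 to 6 lower. There were 3 lower without the castrated animals with ID numbers above 4000, and without the 4 seminal vesicle-high arrays there were 12 calls, 12 higher and 0 lower. Among values called in the fits reported, the one that changed sign was Pkp4 in that comparison, at -0.18 with the mean of a gene's probes, whose probes disagree. Values near 0 that were not called took either sign, such as Tjp1 in that comparison, from -0.13 to 0.07. The causes of the other changes were not tested, except that leaving out the 4 arrays leaves 1 control. No paired analysis was run, because the labels give mouse ID numbers but do not pair animals across groups. Only castrated 4, 5 and 6 had ID numbers above 4000 (4450, 4644 and 4453). Whether they formed a separate cohort is not stated in the labels. The 2 settings that leave out arrays by what they express were added after seeing the data. Folds of genes close to background are understated.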
